A study of Mus musculus with 3 samples.

Results

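Heat-shock NK cells are described here as the tumor NK cells in which 4 inducible chaperone genes, *Hspa1a*, *Hspa1b*, *Hsph1* and *Dnajb1*, took the greatest share of the transcripts. Cells were counted as NK cells when they held at least 1 unique molecular identifier (UMI, the tag that marks 1 captured transcript) of *Ncr1*, at most 1 of *Cd3e*, at most 1 of *Cd8b1* and at most 3 of *Mki67* and *Top2a* together. The heat-shock NK cells were selected on measured values, as the top 5% of NK cells of each library by the summed share of the 4 genes. They numbered 388 of 7777 NK cells, among 31943 cells that passed the limits on genes and mitochondrial UMIs, of 34781 deposited. They were compared with the 3888 NK cells of the lower 50% by the same share in the same libraries, called comparison cells below.

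The tumors were grafts of MC38-Ova, the MC38 colon carcinoma line made to carry ovalbumin, grown under the skin of wild-type C57BL/6 mice that carry Kaede, a green protein that light turns red. All tumors were labeled as isotype control treated, 250000 tumor cells were injected, the tumor was photoconverted on day 13 and taken on day 15. Kaede-green (KG+) cells had entered the tumor in the 48 h after photoconversion and gave 2 libraries, labeled as biological replicates and named Kaede-green 1 and Kaede-green 2, while Kaede-red (KR+) cells had been in the tumor at photoconversion and gave 1, named Kaede-red. Whether a library held 1 tumor or several was not given in the sources used here. By the labels, tumors were digested for 40 min at 37 °C, whereas the study's general methods for tumors give another enzyme mix and a shorter time. They were then passed over a dead cell removal kit, and live CD45+ TER119- Kaede+ cells were then sorted with CD11b+ NK1.1- cells left out. Heat-shock NK cells of Kaede-green 1 numbered 128, those of Kaede-green 2 125 and those of Kaede-red 135, with 809613, 1067514 and 1454002 UMIs in all. The comparison cells numbered 1281, 1256 and 1351, with 8240736, 12751297 and 24872532 UMIs.

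The heat-shock response is run by the transcription factor HSF1, which is held inactive by chaperones and released when unfolded proteins occupy them. Freed HSF1 forms trimers and binds repeats of the short unit GAA, in alternating orientation, in the promoters of chaperone genes. Hsp70 proteins (*Hspa1a*, *Hspa1b*) bind unfolded stretches of protein, J-domain proteins such as *Dnajb1* hand clients to them, and *Hsph1* encodes an Hsp110 that exchanges their nucleotide. Dissociation of tissue is known to induce both these genes and immediate early genes in single cells, and stress within a tumor can do so too. NK cells are lymphocytes that kill with perforin and granzymes and release interferon gamma, TNF and chemokines.

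The promoter sequences of the genes that chose the cells were searched for the unit the response is known for. The letters searched were GAANNTTC and TTCNNGAA, a pair of units in opposite orientation, which read the same on both strands, in the 250 bases before each start site of RefSeq on GRCm38.p6. The pair was in 12.8% of all 32851 such windows, and it was chosen after a search for 3 units in a row, GAANNTTCNNGAA or TTCNNGAANNTTC, had found few (0.466% of windows, and 0 of the 4 genes that chose the cells). It was in the windows of *Hspa1a*, *Hspa1b* and *Hsph1* and not in those of *Dnajb1*. Capitals mark the pair, and the bases run in the direction of the gene. *Hspa1a* is at chr17:34972157-34972406 on the minus strand, *Hspa1b* at chr17:34959239-34959488 on the minus strand, *Hsph1* (1 of its 2 windows) at chr5:149636337-149636586 on the minus strand and *Hspb1*, a small heat-shock gene described below, at chr5:135887669-135887918 on the plus strand.
Hspa1a: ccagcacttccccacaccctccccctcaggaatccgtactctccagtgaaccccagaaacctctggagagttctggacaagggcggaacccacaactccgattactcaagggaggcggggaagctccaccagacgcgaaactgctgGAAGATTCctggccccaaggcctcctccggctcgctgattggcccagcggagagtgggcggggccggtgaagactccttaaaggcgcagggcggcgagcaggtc
Hspa1b: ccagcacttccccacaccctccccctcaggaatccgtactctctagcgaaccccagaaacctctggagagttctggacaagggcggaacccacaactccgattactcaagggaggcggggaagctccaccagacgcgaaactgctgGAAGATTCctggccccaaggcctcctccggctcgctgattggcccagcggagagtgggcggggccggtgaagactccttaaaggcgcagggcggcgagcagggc
Hsph1: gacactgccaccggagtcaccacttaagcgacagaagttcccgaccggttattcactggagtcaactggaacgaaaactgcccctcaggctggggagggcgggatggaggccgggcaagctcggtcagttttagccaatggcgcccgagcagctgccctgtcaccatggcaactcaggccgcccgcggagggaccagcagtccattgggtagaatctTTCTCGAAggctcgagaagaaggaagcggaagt
Hspb1: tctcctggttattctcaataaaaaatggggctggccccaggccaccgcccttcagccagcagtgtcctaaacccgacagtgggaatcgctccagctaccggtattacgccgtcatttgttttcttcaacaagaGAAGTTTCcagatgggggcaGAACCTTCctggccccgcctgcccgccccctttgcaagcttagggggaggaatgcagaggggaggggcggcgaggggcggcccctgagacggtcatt
The *Hspa1a* and *Hspa1b* windows are identical at 247 of 250 bases, with the pair 104 to 97 bases before the start in both. The genes are near-identical copies as well, so how the authors' counting divided reads between them is uncertain, and the split between them is not read here. A match is a description of letters, not of a bound site.

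Defining markers of NK cells were present. All 10 NK markers looked for (*Ncr1*, which the rule itself required, *Klrb1c*, *Klrk1*, *Klrd1*, *Eomes*, *Tbx21*, *Gzma*, *Prf1*, *Tyrobp* and *Nkg7*) were seen in the heat-shock NK cells of every library. Their summed level was 17540, 13940 and 11080 CPM (UMIs per 1000000 UMIs of the summed cells, the 4 selecting genes left out of the total except for their own levels; here and below the 3 values are those of Kaede-green 1, then Kaede-green 2, then Kaede-red), beside 20820, 15850 and 11500 CPM in the comparison cells. *Gzma*, a granzyme, was the most abundant of them in each library. T cell markers summed to 1161, 1106 and 966 CPM in heat-shock NK cells and 1122, 1163 and 905 CPM in comparison cells, with *Trbc1*, an unrearranged form of which NK cells also transcribe, the most abundant. Markers of innate lymphoid cells, led by *Gata3*, summed to 183, 224 and 234 CPM against 160, 178 and 125 CPM. B cell markers (79.3, 130 and 168 against 87.9, 126 and 176 CPM, led by *Ighm*), mast cell and basophil markers (38.4, 46.1 and 40.0 against 36.5, 58.2 and 46.2 CPM, led by *Kit*) and tumor and stromal markers (4.96, 11.3 and 8.27 against 5.34, 6.04 and 6.67 CPM, led by *Epcam* in heat-shock NK cells) were low, and erythroid markers were at 0 in both groups. Myeloid markers summed to 54.5, 1506 and 267 CPM in heat-shock NK cells against 268, 478 and 84.6 CPM in comparison cells, with *Cd74* the most abundant and *S100a8* and *S100a9* at 0 in all heat-shock NK cells. A single cell held 71.1% of the myeloid UMIs of the heat-shock NK cells in Kaede-green 2, and a single cell 76.6% of those in Kaede-red. The libraries shared 20, 28 and 36 cell barcodes in pairs, and 0 of these were heat-shock NK cells.

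Values of the 4 genes are a description, since they chose the cells. *Hspa1a* and *Hspa1b* encode the inducible Hsp70. *Hspa1a* stood at 1113, 1586 and 590 CPM in the heat-shock NK cells, and at 0, 1.18 and 0.844 CPM in comparison cells. *Hspa1b* stood at 1621, 1420 and 631 CPM, against 0, 0.941 and 0.563 CPM. The J-domain gene *Dnajb1* stood at 514, 506 and 327 CPM, against 0, 14.7 and 16.4 CPM. *Hsph1* stood at 180, 388 and 149 CPM, against 0, 8.08 and 5.15 CPM. Kaede-red had the lowest level of each of the 4 among the heat-shock NK cells. In Kaede-green 1, 50.7% of NK cells held no UMI of the 4 genes, so all 1281 comparison cells of that library were at 0; the shares at 0 were 39.3% in Kaede-green 2 and 32.5% in Kaede-red.

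The group was not uniform. The highest share of the 4 genes in 1 cell was 2.73%, 3.61% and 1.28% of its UMIs, while the median heat-shock NK cell held 0.0948%, 0.198% and 0.0629%. At the threshold the cells rest on few transcripts. The last cell inside held 3 of 5630 UMIs (0.0533%), 3 of 4772 (0.0629%) and 2 of 5251 (0.0381%). The first cell outside held 3 of 5647 (0.0531%), 2 of 3232 (0.0619%) and 3 of 7929 (0.0378%). At least 10 UMIs of the 4 genes were found in 54, 78 and 59 of the heat-shock NK cells. All 4 genes were detected in 18.8%, 33.6% and 20% of them (exact 95% intervals, which cover counting error only, 12.4 to 26.6, 25.4 to 42.6 and 13.6 to 27.8%), and a single one in 36.7%, 15.2% and 27.4%. The heat-shock NK cells held 61.7%, 62.7% and 42.9% of all NK cell UMIs of the 4 genes in their library.

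Depth and stress measures differed between the groups and are given beside the results. Median UMIs per cell were 5393.5 in heat-shock NK cells and 5661 in comparison cells of Kaede-green 1, 6833 and 8443.5 in Kaede-green 2, and 7540 and 16938 in Kaede-red, where the gap was widest. Mitochondrial UMIs had medians of 2.92% and 2.85%, 2.56% and 2.65%, and 2.55% and 2.44%. Immediate early genes, which are switched on within minutes by many stimuli, took a median of 1.28% against 1.01% of UMIs, 1.08% against 0.820%, and 0.914% against 0.476%, widest apart in Kaede-red. The part of handling, depth or cell state in the results was not tested. As a measured alternative, each heat-shock NK cell was set beside 3 comparison cells of like total UMIs (depth-matched below).

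Along the ranking of NK cells, levels of other chaperones climbed most in the top bands. In Kaede-green 2 the chaperone gene *Hsp90aa1* stood at 472 CPM in the lowest 50%, 669 CPM in the 90 to 95% band, 1517 CPM in the 95 to 98% band, 2038 CPM in the next and 4431 CPM in the top 1% of NK cells. In Kaede-red the same bands gave 353, 500, 601, 765 and 2045 CPM. The immediate early gene *Jun* went from 282 CPM in the lowest band to 1300 CPM in the top 1% of Kaede-green 1, from 235 to 1651 CPM in Kaede-green 2 and from 154 to 1079 CPM in Kaede-red. Among heat-shock NK cells alone, the share of the 4 genes went with the level of *Hsp90aa1* with a Spearman rho of 0.56 over 128 cells, 0.51 over 125 and 0.49 over 135, and with the summed immediate early genes with a rho of -0.19, -0.02 and 0.03. These correlations are descriptions over cells of 1 library each, which share their total UMIs as a denominator, and rho with total UMIs itself was 0.28, 0.11 and 0.22.

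**Figure D1:**
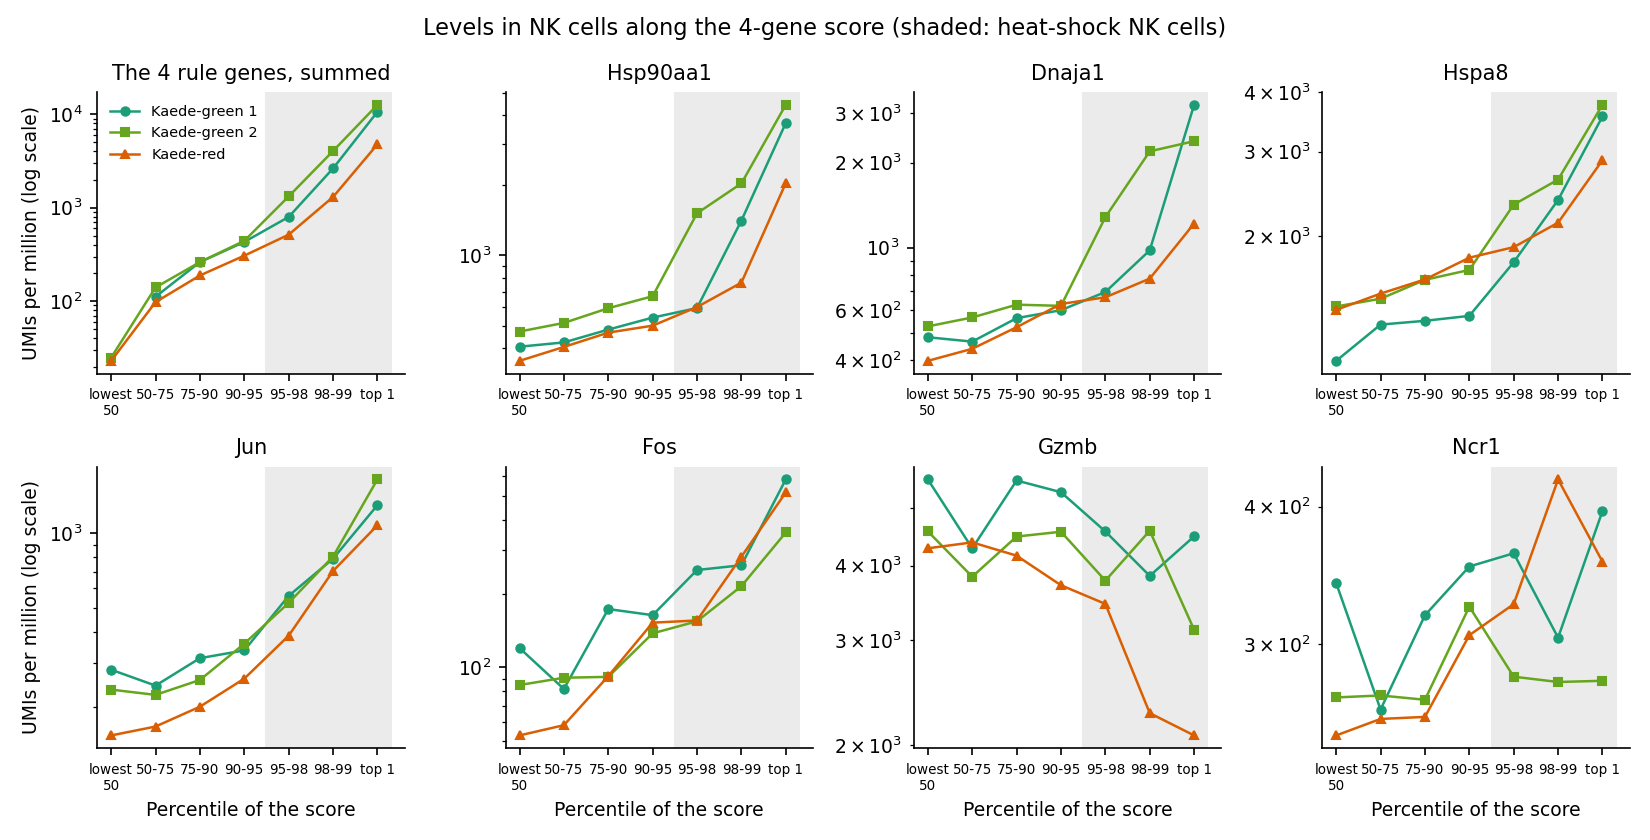
CPM (log axis) of the 4 rule genes together and of other genes against the rank band of NK cells by the share of the 4 genes, from the lowest 50% to the top 1%, with 1 line per library and no error bars, since a band is 1 sum per library. The rule genes reach 10630, 12630 and 4769 CPM in the top 1% by construction (the lowest band of Kaede-green 1 is at 0 and is not drawn on the log axis), *Hsp90aa1*, *Dnaja1* and *Hspa8* climb mostly in the last bands, and *Gzmb* in Kaede-red falls from 4279 to 2075 CPM.

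With the 4 genes left out, heat-shock NK cells differed from comparison cells in 261 of 9922 genes tested (edgeR's quasi-likelihood test on summed UMIs with the library as a block, n = 3 libraries a group, Benjamini-Hochberg adjusted p under 0.05). Of the tested genes, 183 were higher (1.84%) and 78 lower (0.786%). The genes that were higher included 17 of 31 immediate early genes and 16 of 94 chaperone and other heat-induced genes tested, and those that were lower included 6 of 19 granule genes. In 141 of the 261 the 3 heat-shock sums lay wholly above or below the 3 comparison sums, as they did in 10.5% of all tested genes. The direction of the called genes held in 252 of the 252 that DESeq2 tested and in 261 of 261 under the other scalings tried. The median of all tested genes moved from -0.0011 to between -0.03 and 0.05 (log2). Since the sums were the same, directions had little room to change. Called again were 118 of 252 with DESeq2 and 199 of 261 when scaled on total UMIs alone. With the chaperone lists left out of the scaling, 261 of 261 were called again. Against depth-matched cells, 161 of 8387 genes were higher (1.92%) and 115 lower (1.37%), and 182 of 254 genes tested in both were called again. Only the Kaede-green libraries are labeled as replicates, and the test measures the spread over 3 libraries that may differ technically. Kaede-green 2 weighed most in the counts, which without it were 76 higher and 37 lower. Of the 59 genes named by rule and called, 34 were called without it, 40 with DESeq2, 40 under a stricter NK rule, 35 with matching on immediate early UMIs and 22 after thinning to 2000 UMIs.

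Of the chaperones, those of the Hsp90 and Hsp70 machines are described first. *Hsp90aa1*, the inducible cytosolic Hsp90, stood at 1489, 2137 and 977 CPM in the heat-shock NK cells and at 406, 472 and 353 CPM in comparison cells. The groups did not overlap, and the 2 Kaede-green libraries had the higher levels. It rose by 1.80 ± 0.13 (log2 fold change ± SE; edgeR adjusted p = 2.00e-05). Against depth-matched cells its log2 fold change was 1.81 with an edgeR adjusted p of 0.195, and without Kaede-green 1 it was 1.74 with an adjusted p of 0.123. *Hsp90ab1*, the constitutive Hsp90, stood at 2237, 2872 and 2322 CPM against 1301, 1780 and 2119 CPM and did not pass the test (0.49 ± 0.15, edgeR adjusted p = 0.197). *Ahsa1*, which speeds the ATPase of Hsp90, rose by 0.54 ± 0.13 (edgeR adjusted p = 0.0202; 0.632 without Kaede-green 2, with a log2 fold change of 0.34). Of 16 genes for Hsp90 and its co-chaperones, 2 were higher and 0 lower, with a median log2 fold change of 0.14 beside -0.0011 over all genes tested.

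*Hspa8*, the constitutive Hsp70, stood at 2318, 2639 and 2179 CPM in heat-shock NK cells and 1094, 1422 and 1399 CPM in comparison cells, without overlap. It rose by 0.83 ± 0.09 (edgeR adjusted p = 4.59e-06; 0.0241 against depth-matched cells). *Hspa4l*, a relative of *Hsph1*, rose by 1.03 ± 0.21 (edgeR adjusted p = 0.00455; 0.192 without Kaede-red and 0.985 after thinning, with log2 fold changes of 0.74 and 0.12), from 11.4 to 15.5 CPM in comparison cells up to 19.8 to 32.4 CPM. The other 14 tested genes of the Hsp70 and nucleotide exchange list, 16 in all, did not pass, and the list's median was -0.11. Among them was *Bag3*, a co-chaperone of Hsp70 in autophagy, with 4.96, 17.9 and 6.89 CPM against 4.37, 4.63 and 2.65 CPM (1.32 ± 0.38, edgeR adjusted p = 0.0582).

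Of 31 J-domain genes tested, 3 were higher and 0 lower, with a median of 0.03. *Dnaja1*, a cytosolic partner of Hsp70, stood at 1310, 1676 and 821 CPM against 481, 526 and 397 CPM. Again the groups did not overlap, with Kaede-red lowest in both. It rose by 1.35 ± 0.11 (edgeR adjusted p = 1.10e-06), whereas against depth-matched cells the log2 fold change was 1.30 with an edgeR adjusted p of 0.323. *Dnajb4* rose by 0.73 ± 0.14 (edgeR adjusted p = 0.00240; 0.257 without Kaede-green 2, with a log2 fold change of 0.52) and *Dnaja4* by 1.25 ± 0.26 (edgeR adjusted p = 0.00460; 0.0774 without Kaede-green 1, with a log2 fold change of 1.14).

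In mitochondria, *Hspd1* encodes the Hsp60 barrel and *Hspe1*, from the shared promoter on the other strand, its lid. *Hspd1* stood at 279, 424 and 274 CPM in heat-shock NK cells and 135, 200 and 204 CPM in comparison cells, and rose by 0.80 ± 0.13 (edgeR adjusted p = 0.00191; 0.284 against depth-matched cells and 0.0516 without Kaede-green 1, with log2 fold changes of 0.84 and 0.67). *Hspe1* stood at 662, 943 and 610 CPM against 277, 408 and 464 CPM, each library higher and the groups apart, but did not pass (0.91 ± 0.24, edgeR adjusted p = 0.240). *Hspd1* alone among the genes that rose here and were listed as chaperones or heat-induced had a match of the 3-unit search in its window, in 2 overlapping places, at chr1:55088053-55088082 on the minus strand, 95 to 66 bases before the start of *Hspe1*. Capitals mark all matched units in these 30 bases.
Hspd1: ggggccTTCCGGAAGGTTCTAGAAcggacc
Of 16 chaperonin and prefoldin genes *Hspd1* was the 1 that was higher and 0 were lower, and the cytosolic chaperonin subunits did not pass the test (list median -0.15).

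*Hspb1* (Hsp27 in other nomenclature), a small chaperone that holds unfolded proteins without ATP, was found mainly in heat-shock NK cells. Its level was 167, 113 and 55.8 CPM in them and 0, 0.784 and 0.684 CPM in comparison cells. The difference was 7.23 ± 0.58 on the log2 scale (edgeR adjusted p = 0.0263), and without Kaede-green 2 it was 7.30 with an adjusted p of 0.497. It came from few cells, since 26 of the 388 heat-shock NK cells held its 336 UMIs and 1 of them 23.5%. In comparison cells 19 of 3888 held its 27 UMIs.

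**Figure D2:**
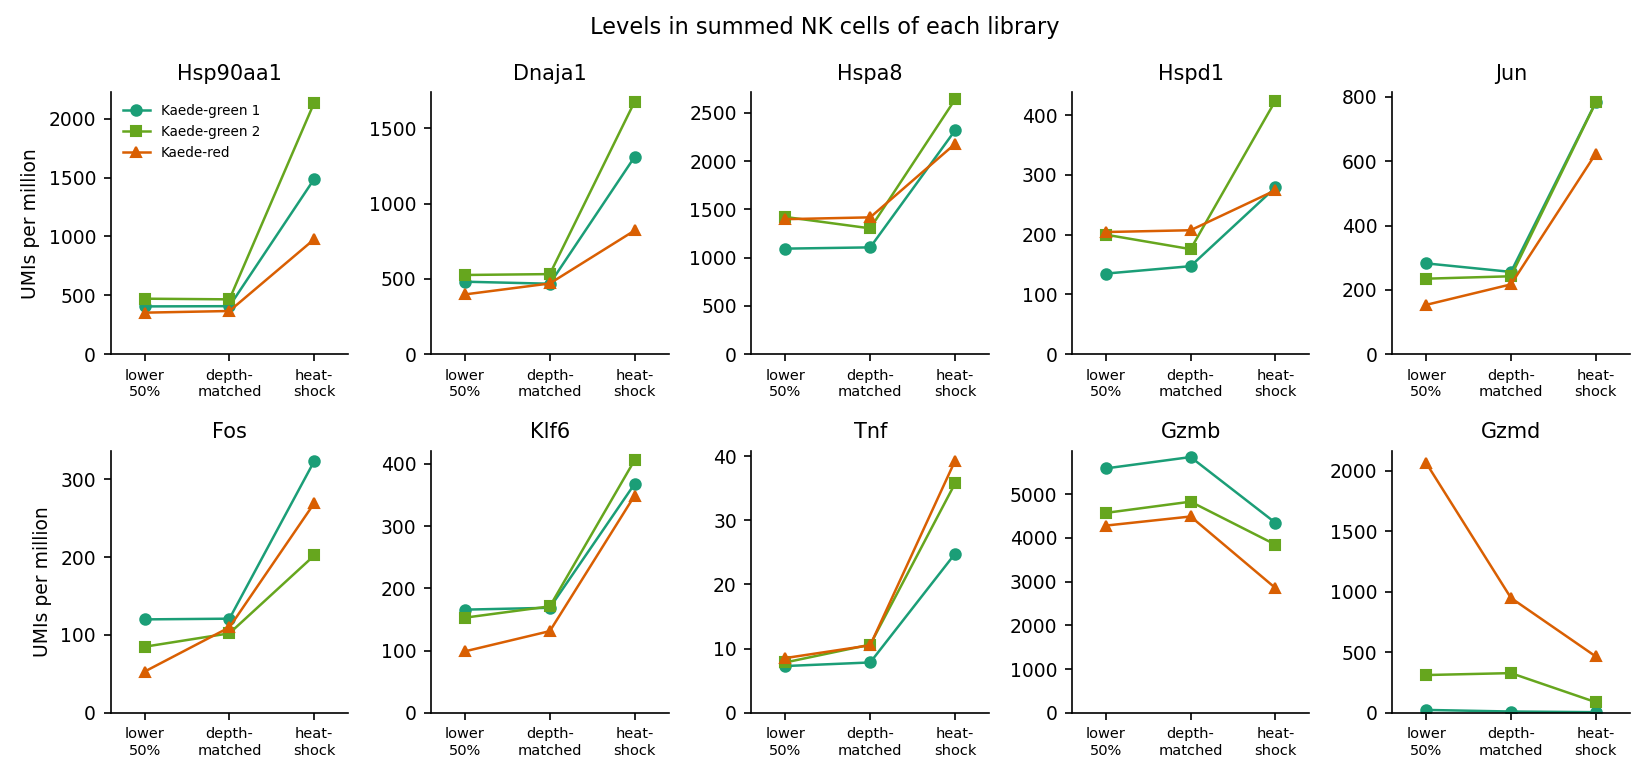
CPM (linear axis from 0) of chaperone, immediate early, cytokine and granzyme genes in the lower 50%, in comparison cells matched on total UMIs and in heat-shock NK cells, with 1 point per library and group, joined by library. *Hsp90aa1*, *Dnaja1*, *Hspa8* and *Jun* are higher in heat-shock NK cells in each of the 3 libraries against both kinds of comparison cells, and *Gzmb* is lower.

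Genes outside the chaperone families that heat is known to induce were read next. Of 10 such genes 7 were higher and 0 lower, with a median of 0.50. *Ubb*, a polyubiquitin gene, rose by 0.37 ± 0.08 (edgeR adjusted p = 0.00561). *Slc5a3*, an inositol transporter that shares its strand and place with *Mrps6* so that reads may be divided between them, rose by 1.21 ± 0.22 (edgeR adjusted p = 0.00122). *Ier5*, *Dedd2*, *Rsrp1* and *Tra2a* also rose, and did not pass in 3, 3, 7 and 10 of 20 alternatives. With matching on immediate early UMIs *Ier5* was at 0.18 in place of 0.68 (log2, edgeR adjusted p = 0.396). Leaving out 1 library took the edgeR adjusted p up to 0.585 for *Rsrp1* and 0.227 for *Tra2a*. *Zfand2a*, *Clk1* and *Sqstm1* did not pass, with edgeR adjusted p of 0.0537, 0.0759 and 0.595. The genes for heat-shock factors and their binding protein did not pass either. *Hsf1* stood at 22.3, 10.3 and 15.2 CPM against 14.3, 11.9 and 13.9 CPM (0.15 ± 0.25, edgeR adjusted p = 0.857), and 0 of the 3 tested genes (*Hsf1*, *Hsf2* and *Hsbp1*) were called.

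Among the chaperone and other heat-induced genes that rose, 13 of 16 had a promoter window and 5 of the 13 (38.5%) held the pair of GAA units, namely *Dnaja1*, *Dnaja4*, *Dnajb4*, *Hspb1* and *Hspd1*. The share was 7.14% of the immediate early genes that rose (1 of 14, *Jun*), 15.3% of all genes that rose, 10.3% of those that fell and 12.2% of tested genes that were not called. No match says only that these letters are not in the window. *Hsp90aa1* and *Hspa8* were among those with no window in the table.

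Immediate early genes made the largest block of called genes among the lists. Of 31 tested, 17 were higher and 0 lower, and their median log2 fold change was 0.81. *Jun*, a component of the AP-1 transcription factor, stood at 783, 782 and 624 CPM in heat-shock NK cells and at 282, 235 and 154 CPM in comparison cells. No heat-shock sum came near a comparison sum. It rose by 1.70 ± 0.10 (edgeR adjusted p = 1.43e-12) and passed the threshold in 20 of the 20 alternatives run. *Klf6*, a zinc finger factor, stood at 368, 406 and 349 CPM against 166, 153 and 98.8 CPM and rose by 1.42 ± 0.11 (edgeR adjusted p = 9.43e-10). *Fos*, the partner of *Jun*, stood at 324, 202 and 269 CPM against 120, 84.9 and 52.9 CPM and rose by 1.65 ± 0.18 (edgeR adjusted p = 0.00134; 0.0904 without Kaede-green 1, with a log2 fold change of 1.73). *Ppp1r15a*, which ends the block of translation in stress, rose by 1.13 ± 0.12 (edgeR adjusted p = 4.57e-07), and *Cd69*, a surface marker of early activation, by 0.92 ± 0.10 (edgeR adjusted p = 1.03e-06). *Dusp1*, a phosphatase of MAP kinases, stood at 318, 378 and 314 CPM against 186, 112 and 78.8 CPM without passing (1.48 ± 0.24, edgeR adjusted p = 0.0717).

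Summed, the immediate early genes took 12700, 11590 and 9591 CPM in heat-shock NK cells, 9884, 7808 and 4758 CPM in comparison cells and 9982, 8814 and 6533 CPM in depth-matched ones. The gap was smallest in Kaede-green 1 and widest in Kaede-red. Against depth-matched cells 17 of 31 were again higher and 0 lower. Against comparison cells chosen to have the same share of immediate early UMIs, 7 were higher and 2 lower, and *Jun* was 1.31 higher (log2, edgeR adjusted p = 9.17e-19). That match used the sum of these same genes, *Jun* among them. Fewer calls therefore follow from the match and are not read as a result. When every cell was first thinned to 2000 UMIs, *Jun* was seen in 57.8%, 55.2% and 51.1% of heat-shock NK cells and in 34.9%, 32.6% and 26.8% of comparison cells (unthinned 72.7%, 76.8% and 77.0% against 59.9%, 67.1% and 72.9%).

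Some of the largest rises were outside the chaperone and immediate early lists. *Tnfsf9*, the ligand of the costimulatory receptor 4-1BB, stood at 58.3, 31.97 and 59.3 CPM against 8.49, 7.61 and 8.24 CPM and rose by 2.55 ± 0.19 (edgeR adjusted p = 4.17e-10). Of its 167 UMIs in heat-shock NK cells 34.7% were in 1 cell, and 45 cells held some. *Tnf*, the cytokine, stood at 24.8, 35.7 and 39.3 CPM against 7.28, 7.84 and 8.52 CPM and rose by 2.04 ± 0.21 (edgeR adjusted p = 2.78e-07; after thinning to 2000 UMIs 1.01, with an adjusted p of 0.605). *Map3k8*, a kinase upstream of ERK, rose by 1.63 ± 0.16 (edgeR adjusted p = 4.57e-07), and *Cited4*, a transcriptional coregulator, by 1.48 ± 0.12 (edgeR adjusted p = 2.49e-09). *Ahr*, the aryl hydrocarbon receptor, stood at 57.0, 107 and 55.8 CPM against 32.8, 28.8 and 14.4 CPM and rose by 1.56 ± 0.18 (edgeR adjusted p = 2.22e-05).

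*Ctsl*, a lysosomal protease, rose by 2.19 ± 0.28 (edgeR adjusted p = 0.000218), from 9.10, 10.5 and 3.62 CPM to 16.1, 58.3 and 26.9 CPM. Of its UMIs in heat-shock NK cells 41.2% were in 1 cell, and under a stricter rule that removed NK cells with T, B or macrophage transcripts it did not pass (log2 fold change 1.27, edgeR adjusted p = 0.0756). In 11 of the 183 higher genes 1 cell held over 25% of the UMIs, and they include the myeloid genes *Spi1* and *Pltp*, which were chosen for mention after their values were seen. These go with the myeloid markers given above, and their part in the result was not tested.

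Of 14 cytokine and chemokine genes, 1 was higher (*Tnf*) and 2 were lower, with a median of 0.45. *Ccl1*, a chemokine of activated lymphocytes, stood at 1.24, 4.70 and 3.45 CPM in heat-shock NK cells and 13.4, 28.7 and 28.3 CPM in comparison cells, without overlap, and fell by 2.96 ± 0.32 (edgeR adjusted p = 4.57e-07). Its UMIs were in 11 of the 388 heat-shock NK cells, with 1 each, and in 151 of the 3888 comparison cells, which held 1179, 18.9% of them in 1 cell. With the top 10% as members its log2 difference was 0.78. *Tgfb1*, a suppressive cytokine, fell by 0.45 ± 0.10 (edgeR adjusted p = 0.00544). Its log2 ratio was -0.49, -0.58 and -0.14 in the 3 libraries. Leaving out 1 library took the edgeR adjusted p of *Tgfb1* up to 0.326, with log2 fold changes from -0.56 to -0.39. *Ifng* stood at 460, 505 and 256 CPM against 256, 241 and 62.9 CPM, higher in each library, but did not pass (1.27 ± 0.22, edgeR adjusted p = 0.0759); against depth-matched cells it passed (2.57e-13). *Ccl3*, a chemokine of activated NK cells, stood at 285, 596 and 142 CPM against 174, 106 and 7.92 CPM and did not pass (edgeR adjusted p = 0.501).

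Some granule genes were lower. Of 19 tested, 0 were higher, 13 did not pass and 6 were lower, *Gzmg*, *Gzmd*, *Gzme*, *Gzmb*, *Serpinb9* and *Gzma*, and the median was -0.23. *Gzmb*, the major granzyme of killing, stood at 4343, 3844 and 2851 CPM in heat-shock NK cells and 5586, 4569 and 4279 CPM in comparison cells. It was lower in each library, though the groups overlapped because the libraries differed. It fell by 0.44 ± 0.08 (edgeR adjusted p = 0.00171; 0.000727 against depth-matched cells and 0.782 under the stricter NK rule, with log2 fold changes of -0.49 and -0.43). *Prf1*, the pore protein perforin, stood at 811, 615 and 500 CPM against 813, 781 and 871 CPM and did not pass (edgeR adjusted p = 0.291).

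Granzymes D, E and G, a tight gene family whose reads may be divided between its copies so that each value is uncertain, were found mainly in Kaede-red. *Gzmd* stood at 4.96, 87.5 and 465 CPM against 23.4, 312 and 2064 CPM and fell by 2.10 ± 0.13 (edgeR adjusted p = 1.43e-12). Depth-matched comparison cells, which in Kaede-red had fewer UMIs per cell, held 10.3, 328 and 949 CPM, and against them the fall was 1.41 (log2). Its edgeR adjusted p was 0.773 with matching on immediate early UMIs (log2 fold change -1.07) and 0.786 under the stricter NK rule (log2 fold change -2.07), and 5 of 20 alternatives did not pass. *Gzme* fell by 2.92 ± 0.22 (edgeR adjusted p = 1.65e-05), with a log2 fold change of -1.78 and an adjusted p of 0.571 against depth-matched cells. *Gzmg* stood at 0, 0 and 5.51 CPM against 0.364, 80.2 and 347 CPM. The 19 granule genes together took 25010, 20990 and 23660 CPM in heat-shock NK cells, 27690, 26610 and 38130 CPM in comparison cells and 28330, 27780 and 31360 CPM in depth-matched ones.

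Outside the granule and cytokine genes, *Pdgfa*, a growth factor, fell by 1.501 ± 0.22 (edgeR adjusted p = 6.49e-05). *Spsb1*, a ubiquitin ligase adaptor, fell by 1.32 ± 0.18 (edgeR adjusted p = 1.79e-05), and *Pxdc1* fell by 1.02 ± 0.21 (edgeR adjusted p = 0.00521). The groups did not overlap for *Spsb1*, with 18.6, 21.6 and 21.4 CPM against 46.1, 57.3 and 46.8 CPM. *Gcsh*, *Rhoq*, *Fdps*, *Cyp51* and *Yif1a* followed, with log2 fold changes from -1.02 to -0.86 (edgeR adjusted p from 0.000219 to 0.0183). They did not pass in 2, 3, 6, 10 and 12 of 20 alternatives, in that order. *Fdps* and *Cyp51* encode enzymes of sterol synthesis, and for both the groups overlapped. Against depth-matched cells *Fdps* was at -0.63 and *Cyp51* at -0.68 (log2, edgeR adjusted p of 0.0239 and 0.076). After thinning *Fdps* was at -0.28 and *Cyp51* at -0.07 (log2, edgeR adjusted p of 0.928 and 0.99).

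Lists of other stress pathways were read in the same way. Of 19 genes of the unfolded protein response of the endoplasmic reticulum, 3 were higher and 0 lower, with a median of -0.17. The 3 were the transcription factors *Ddit3* (0.87 ± 0.16, edgeR adjusted p = 0.00170) and *Atf4* (0.53 ± 0.11, edgeR adjusted p = 0.00509) and the membrane protein gene *Herpud1* (0.64 ± 0.14, edgeR adjusted p = 0.00651). Without Kaede-green 2 the edgeR adjusted p was 0.169 for *Atf4* and 0.0773 for *Herpud1* (log2 fold changes of 0.53 and 0.66), and without Kaede-red 0.119 for *Herpud1* (0.43). With matching on immediate early UMIs none of *Ddit3*, *Atf4* and *Herpud1* passed (edgeR adjusted p of 0.142, 0.0593 and 0.473, with log2 fold changes of 0.50, 0.36 and 0.25). *Hspa5*, the Hsp70 of the endoplasmic reticulum, stood at 711, 907 and 710 CPM against 684, 821 and 635 CPM and did not pass (0.08 ± 0.09, edgeR adjusted p = 0.770). Of 9 genes of the oxidative stress response, 0 were higher and 1 lower (*Txn1*, thioredoxin, which fell by 0.34 ± 0.09, edgeR adjusted p = 0.0416). Against depth-matched cells *Txn1* was at -0.23 (log2, edgeR adjusted p = 0.0689). Leaving out 1 library took its edgeR adjusted p up to 0.397, with log2 fold changes from -0.37 to -0.34. Of 19 p53 and apoptosis genes 1 was higher (*Pmaip1*, 1.503 ± 0.34, edgeR adjusted p = 0.01003). None of 3 metallothionein and zinc genes, 13 mitochondrially encoded genes and 19 interferon-stimulated genes passed in this comparison. Of 37 proteasome genes 0 were higher and 2 lower, of 81 ribosomal protein genes 0 and 1, and of 23 glycolysis and hypoxia genes 2 were higher (*Slc2a1*, *P4ha1*) and 2 lower (*Ldha*, *Eno1*). With depth-matched comparison cells, 0 of 22 glycolysis and hypoxia genes were higher and 2 lower. *Slc2a1* passed in the same direction in 10 of 20 alternatives, *P4ha1* in 9, *Ldha* in 14 and *Eno1* in 7.

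Genes of NK cell identity and state were mixed. *Ncr1* stood at 353, 279 and 356 CPM against 341, 269 and 248 CPM (0.17 ± 0.11, edgeR adjusted p = 0.496). Of 28 NK cell receptor genes 3 were higher and 0 lower, the inhibitory or lectin-like receptors *Klrc1* (0.54 ± 0.11, edgeR adjusted p = 0.00289), *Klrb1f* and *Klri2*. Of 14 genes of circulating NK cells 1 was higher, *Zeb2*, a factor of late NK cell maturation (0.77 ± 0.14, edgeR adjusted p = 0.000785). Against depth-matched cells *Zeb2* was at 0.46 (log2, edgeR adjusted p = 0.0408). It did not pass with matching on immediate early UMIs (0.44, edgeR adjusted p = 0.0810) or after thinning (0.27, edgeR adjusted p = 0.881). Leaving out 1 library took its edgeR adjusted p up to 0.0551. Of 12 tissue-residency genes 3 were higher, *Ahr*, *Prdm1* and *Nt5e*. The genes of circulating NK cells summed to 2106, 2212 and 1342 CPM in heat-shock NK cells and to 2035, 1501 and 704 CPM in comparison cells, and the depth-matched cells of Kaede-red held 981 CPM. After thinning, 4.44% of the heat-shock NK cells of Kaede-red held a UMI of *Itgam* (exact 95% interval 1.65 to 9.42%) and 0.888% of its comparison cells (0.460 to 1.55%). There *Itga1* was seen in 6.67% and 10.4%, with overlapping intervals (3.09 to 12.3% and 8.79 to 12.1%). The same shares for *Itgam* were 7.81% and 9.60% in Kaede-green 1, and 4.80% and 4.62% in Kaede-green 2. Those for *Itga1* were 6.25% and 4.45% in Kaede-green 1, and 4.80% and 5.3% in Kaede-green 2. Unthinned, *Itgam* was seen in 7.41% and 3.70% of the cells in Kaede-red. Of 11 T cell markers tested 1 was higher, *Cd3g* (0.69 ± 0.18, edgeR adjusted p = 0.0357), and 0 were lower, while *Trbc1*, the most abundant, stood at 601, 517 and 486 CPM against 673, 643 and 560 CPM. Of 5 ILC markers tested 1 was higher, *Gata3* (0.54 ± 0.13, edgeR adjusted p = 0.0158), and 0 were lower. With depth-matched comparison cells, 0 of 9 tested T cell markers were higher and 1 lower, and 0 of 5 ILC markers were higher or lower.

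**Figure D3:**
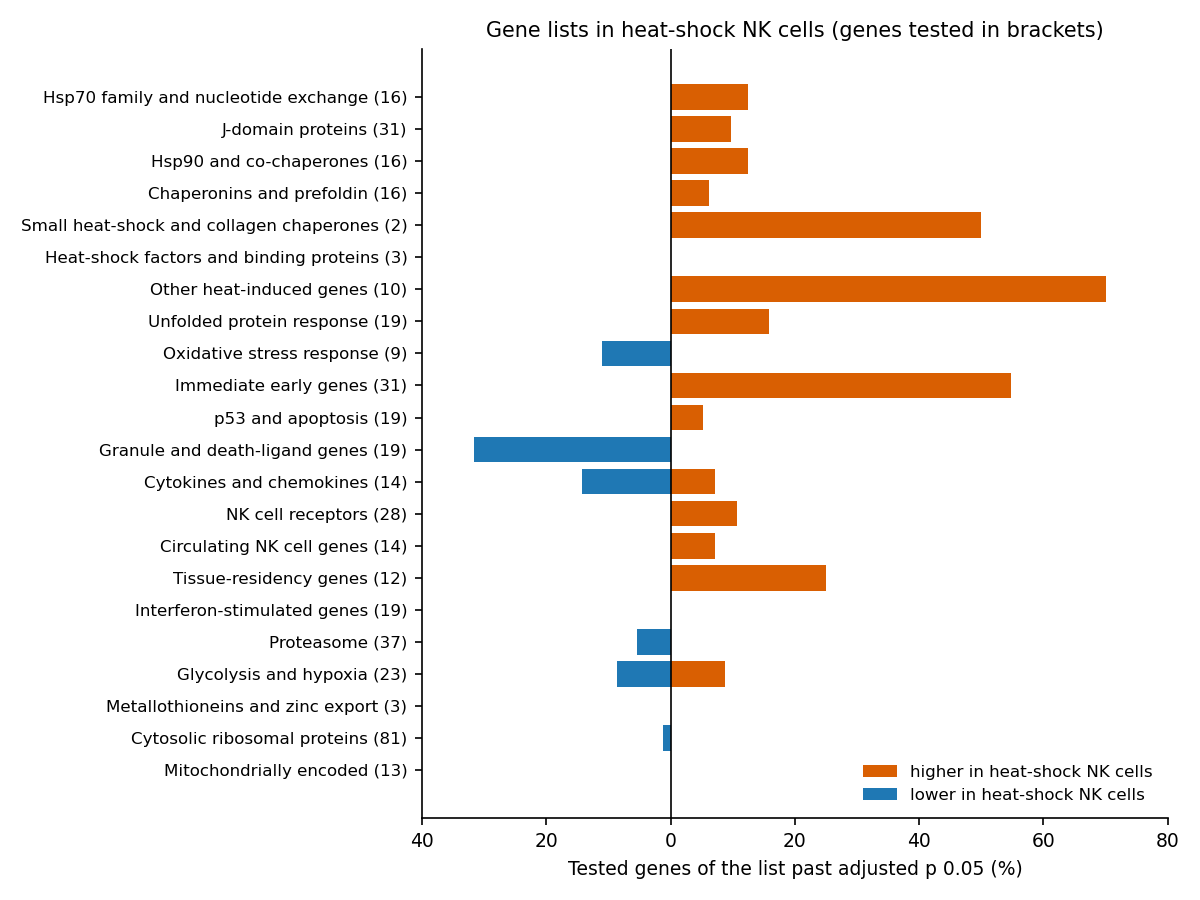
Percent of the tested genes of each list that were called higher (bars to the right) and lower (bars to the left) in heat-shock NK cells against comparison cells at an edgeR adjusted p under 0.05, with the number of genes tested in brackets. Other heat-induced genes (7 of 10) and immediate early genes (17 of 31) have the highest shares called higher, and granule genes (6 of 19) the highest share called lower.

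CD8 T cells of the same libraries were put through the same rule to ask which changes were particular to NK cells. The rule took 471 of 9445 CD8 T cells, selected on the same 4 genes, and their contrast called 411 of 10634 genes higher (3.86%) and 403 lower (3.79%). *Hsp90aa1* rose by 2.15 ± 0.06, *Dnaja1* by 1.29 ± 0.06, *Hspa8* by 0.93 ± 0.05, *Hspd1* by 1.196 ± 0.08 and *Jun* by 1.98 ± 0.08 (edgeR adjusted p = 5.87e-23, 2.25e-17, 5.93e-16, 2.35e-13 and 4.47e-20). In heat-shock CD8 T cells *Bag3*, *Hsp90ab1* and *Hspe1* passed as well, at 1.82, 0.68 and 1.17. Of the genes higher in NK cells 119 were higher in CD8 T cells too (65.0% of the NK list and 29.0% of the CD8 list). Of the genes lower in NK cells 42 were lower in both (53.8% and 10.4%), and 3 genes were higher in NK and lower in CD8 T cells.

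The difference between the contrasts was tested itself. It was called in 21 of 10708 genes (0.196%; edgeR adjusted p under 0.05), 16 with a log2 fold change above that in CD8 T cells and 5 with one below it. Of the 157 tested genes of the chaperone, heat-induced, stress and immediate early lists 0 were called. An unadjusted p under 0.05 by edgeR was found in 18 of the 157, and in 631 of all 10708 tested genes, a smaller share. *Tnfsf9* and *Tnf* differed, with log2 fold changes of 2.55 and 2.04 in NK cells against 0.78 and 0.44 in CD8 T cells (edgeR adjusted p of the difference = 0.000995 and 0.00299). *Lag3*, an inhibitory receptor, fell by 0.76 in CD8 T cells and had a log2 fold change of 0.46 in NK cells (edgeR adjusted p of the difference = 0.000303).

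**Figure D4:**
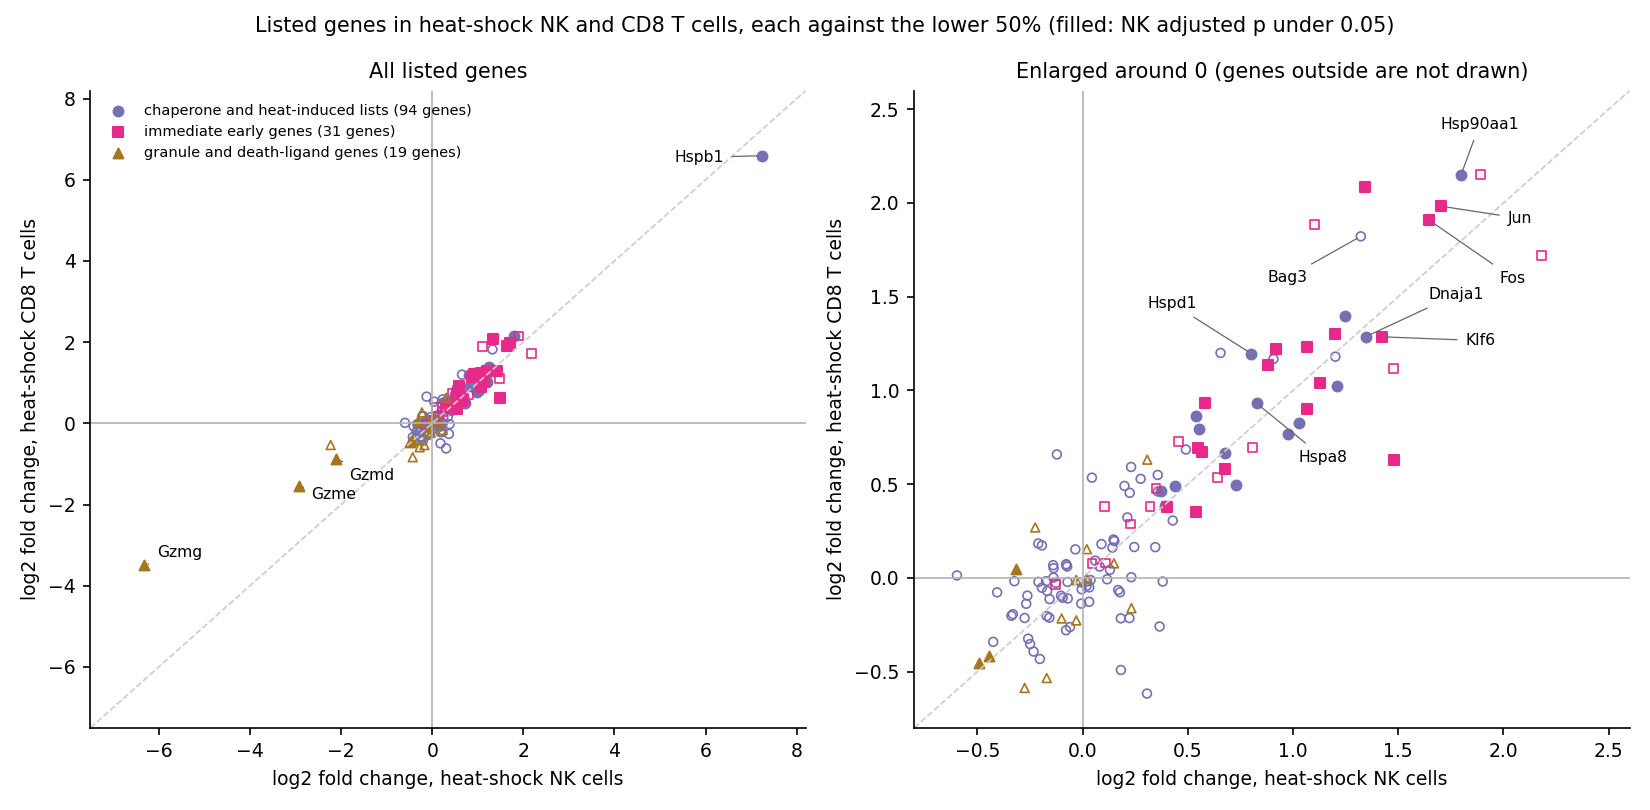
Log2 fold changes of the listed genes in heat-shock NK cells (x axis) and heat-shock CD8 T cells (y axis), each against the lower 50% of its kind, for all listed genes (left) and enlarged around 0 (right), with filled points for genes called in NK cells and a dashed line of equal change. *Hspb1* lies at 7.23 and 6.59, *Hsp90aa1* at 1.80 and 2.15 and *Jun* at 1.70 and 1.98, and the difference between the cell types was not called for *Gzmd*, *Gzme* or *Gzmg*.

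Colors were compared without a test, since KR+ cells made 1 library. To put cells of unlike depth on a common scale, each was thinned to 2000 UMIs, and the share with at least 3 UMIs of the 4 genes was taken. It was 2.30%, 3.19% and 1.55% of NK cells (exact 95% intervals 1.76 to 2.96%, 2.53 to 3.95% and 1.12 to 2.10%). Kaede-red was lowest, though its interval overlapped that of Kaede-green 1. At a limit of 1 UMI the thinned shares of NK cells were 22.3%, 22.9% and 18.8%. Without thinning, at the limit of 3 UMIs, Kaede-red was highest, at 9.29%, 15.5% and 18.3%, with median UMIs of 6083, 7979 and 15044 per NK cell. After thinning, at 3 UMIs, CD8 T cells gave 3.06%, 3.38% and 2.79% (18.3%, 26.5% and 20.8% unthinned) and CD4 T cells 4.21%, 3.501% and 2.74% (13.3%, 18.6% and 10.4% unthinned). B cells after thinning gave 0.5% of 200 cells, 4.04% of 99 and 0 of 6. No cell type known to lack these genes was at hand, so a background share from free RNA was not measured.

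**Figure D5:**
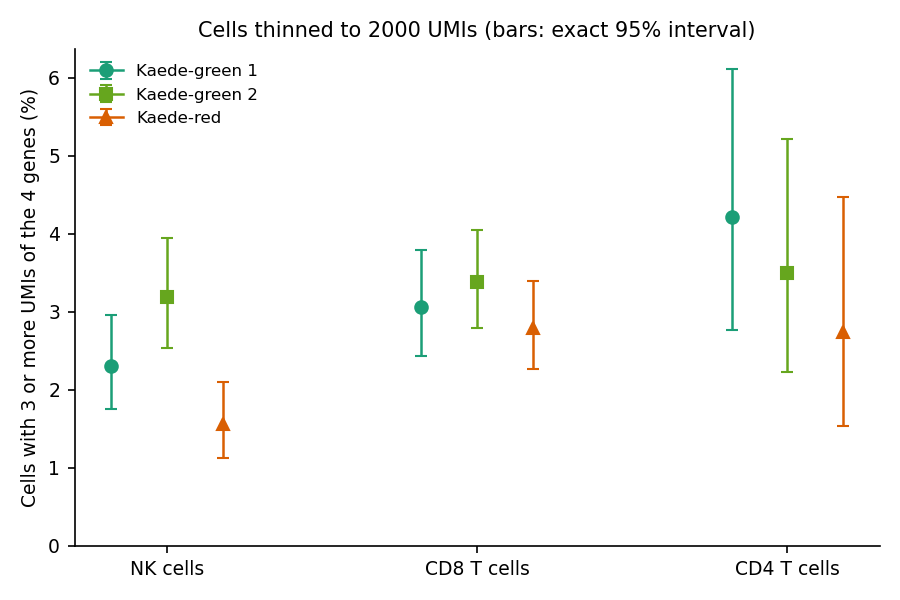
Percent of cells with at least 3 UMIs of the 4 genes after each cell was thinned to 2000 UMIs, for NK, CD8 T and CD4 T cells, with 1 point per library and bars for exact 95% intervals that cover counting error only. NK cells lie between 1.55 and 3.19%, and the intervals of the 3 libraries overlap in CD8 T and in CD4 T cells.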

How the data were processed

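Single-cell RNA libraries (10x 3' chemistry) of sorted tumor leukocytes were counted by the authors with Cell Ranger on mm10 (version 6.1.2 in the submitters' processing notes, 6.0.1 in the file headers), and the deposited values are raw UMI counts per gene and cell, not normalized. Total counts per library were 87193225, 129438292 and 175848894 UMIs over 10498, 12327 and 11956 cells. A count of few UMIs per cell limits the precision of any one cell's rank. Barcodes were kept when they held 1000 to 6000 genes and less than 7.5% of UMIs from mitochondrial genes. The members, gene lists and tests were chosen with earlier results of these data known. Ties in the share of the 4 genes were broken by barcode order.

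UMIs were summed over heat-shock and over comparison cells in each library, without the 4 genes, and tested with edgeR 4.0.16 (R 4.3.3; TMM scaling, filterByExpr, robust quasi-likelihood fit, library as a block, Benjamini-Hochberg adjustment, threshold 0.05). The sums are paired because both come from the same library. CD8 T cells (*Cd3e* and *Cd8b1* present, *Ncr1* at 0) were treated alike, and the difference was tested as an interaction over both cell types. Cells were read and thinned with Python 3.11.15, and exact binomial (Clopper-Pearson) intervals came from scipy 1.17.1. The fits were tested on simulated data with known changes. A doublet caller (Scrublet in scanpy 1.11.5) marked 3.49%, 0.0361% and 0.00920% of cells and so did not work in the last 2 libraries, and leaving out the top 5% of scores is an alternative. Promoters were taken from RefSeq, and gene overlaps from GENCODE M21, in which 32158 of 32285 genes were found.

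Genes named were the 10 largest changes each way past the threshold with a mean of at least 20 CPM and 1 direction in all 3 libraries, up to 4 genes with the smallest adjusted p of each list, all chaperones past the threshold, all markers and the 5 largest interactions each way with the same CPM minimum; textbook members that did not pass are named as such. Alternatives covered scaling, DESeq2 1.42.0, filters, the member share, the comparison cells, depth, doublets, the NK rule and each library left out. Members with at least 10 UMIs, comparison cells with no UMI, and depth matching for CD8 T cells and the interaction were chosen after seeing the data. No test was made between Kaede-green and Kaede-red, which has 1 library. The values of 1 gene of the other heat-induced list are not reported here.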

Additional observations from a re-analysis of the deposited data

Results flagged for a closer look

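The change in heat-shock NK cells differed from that in heat-shock CD8 T cells, by the interaction test (edgeR adjusted p under 0.05), in 10 named genes. The log2 fold change was greater in NK cells by 1.75 ± 0.26 (SE) for *Tnfsf9*, 1.58 ± 0.26 for *Tnf*, 1.19 ± 0.16 for *Lag3*, 1.14 ± 0.24 for *Tcf4* and 0.91 ± 0.18 for *Zeb2*, with edgeR adjusted p of 0.000995, 0.00299, 0.000303, 0.0293 and 0.0224. For *Lag3* and *Tcf4* the NK cell change itself did not pass (log2 0.46 and 0.24), and the CD8 T cell change was -0.76 and -0.92. *Zeb2* rose by 0.77 in NK cells, with -0.16 in CD8 T cells. Of the 16 genes with a positive difference, 8 of lower abundance, under the 20 CPM needed to be named by rule, had larger differences, from 3.12 for *Pld4* to 7.498 for *Smim5*, and *Nucb2*, *Cd200*, *Pltp*, *Gm21762*, *Klk1* and *Lefty1* lay between. *Pld4* and *Tcf4* are known from plasmacytoid dendritic cells, and the part of such cells in these differences was not tested. *Trac*, *Tent5a* and *Cd3g* had differences of 0.69, 0.71 and 0.89.

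It was smaller in NK cells, NK minus CD8, by -1.27 ± 0.24 for *Rbpms*, -1.22 ± 0.25 for *Cant1*, -1.05 ± 0.19 for *Tiparp*, -0.97 ± 0.21 for *Fdps* and -0.54 ± 0.10 for *Plac8*, with edgeR adjusted p of 0.0127, 0.0293, 0.00897, 0.0488 and 0.0178. *Rbpms* rose in both, by 0.56 and 1.82. *Fdps* fell by 0.91 in NK cells, with 0.03 in CD8 T cells, and *Plac8* fell by 0.61, with -0.09. After thinning to 2000 UMIs, 0 of the 16 interaction genes tested in both fits were called. Of the 21 genes called in the interaction, 10 of 21 were called without Kaede-green 1, 3 of 20 tested without Kaede-green 2 and 14 of 21 without Kaede-red.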

How the results depend on the processing

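For 59 named genes, 1176 values under alternatives gave 887 on the same side of the threshold, 285 in the same direction but not past it, and 4 in the other direction, and for none of these was the cause tested. The 4 were *Ccl1* at 0.78 with the top 10% as members, and *Nt5e* at -0.14, *Eno1* at 0.0072 and *Slc2a1* at -0.11 after thinning. Against 183 higher and 78 lower genes in NK cells, DESeq2 gave 92 and 40, the stricter NK rule 91 and 49, thinning to 2000 UMIs 42 and 13 (10 chaperone and heat-induced genes in place of 16, and 11 immediate early genes in place of 17), and matching on immediate early UMIs 92 higher (7 immediate early genes). The immediate early count under that matching was lowered by the match itself, which used the sum of the list. Genes lower were 158 against all other NK cells, 215 with no filter, 42 on total UMIs without TMM, and 167 for members with at least 10 UMIs matched on depth. Without the replicate block, which leaves the paired libraries untreated, 5 were higher and 0 lower in NK cells (450 at an unadjusted p under 0.05 by edgeR), with 1 chaperone, 2 immediate early and 0 granule genes called. Leaving out 1 library gave 76 to 185 higher and 37 to 112 lower genes, 10 to 18 chaperone and heat-induced, 15 to 19 immediate early and 4 to 8 granule genes, with the lowest counts of calls without Kaede-green 2. The heat-shock NK cells' share of the UMIs of the 4 genes in Kaede-red was 57.1% when ranked after thinning.

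In CD8 T cells DESeq2 gave 203 higher and 159 lower genes, thinning 52 and 22, no replicate block 22 and 0, no filter 692 lower, depth matching 174 lower, and leaving out 1 library 128 to 399 higher and 63 to 318 lower, lowest without Kaede-green 1. The interaction gave 3 lower genes with DESeq2, 18 lower with depth matching, 62 higher and 30 lower with no filter, 3 and 2 after thinning, and 6 to 26 higher and 4 to 29 lower with 1 library left out. With 2 libraries left, a fit has few degrees of freedom. Depth limits low genes most, since the heat-shock NK cells of a library held 809613 to 1454002 UMIs.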
